A study of Mus musculus with 36 samples.

Results

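The proteasome subunit genes are the mouse genes named Psma, Psmb, Psmc, Psmd, Psme, Psmf or Psmg with a number. They were taken as every such symbol that a probe set on the array carried alone, with 1 probe set per symbol, the one with the highest mean signal. This gave 47 genes among 18193 genes that the array covers with such a probe set, and 46 of the 47 had enough signal to be tested beside 14115 genes in all. The gene left out of the tests was Psmb11, the thymus-specific catalytic subunit. The probe set of Psme2 also carries Psme2b, so that gene is no member.

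The proteasome is the large protease that degrades proteins marked with ubiquitin. Its barrel, the 20S core, stacks rings of alpha subunits (Psma) and beta subunits (Psmb), and Psmb5, Psmb6 and Psmb7 carry the cutting sites. The 19S cap has a base with a ring of ATPases (Psmc) that unfolds the substrate, and a lid (most of the Psmd genes) in which Psmd14 removes the ubiquitin chain. Chaperones encoded by Psmg1 to Psmg4 build the core and those encoded by Psmd5, Psmd9 and Psmd10 build the base, without staying in the finished particle. In immune settings Psmb8, Psmb9 and Psmb10 replace the standard cutting subunits, and Psme1, Psme3 and Psme4 encode other activator caps. In acetaminophen overdose a reactive metabolite binds liver proteins, and the proteasome is one of the routes by which damaged proteins are removed.

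Total RNA of whole liver was measured on 36 Affymetrix arrays, 1 per mouse, in 12 groups of 3 mice. The strains were SJL, which the study calls resistant to acetaminophen, and SMJ, DBA and C57, which it calls sensitive. Mice of each strain were sampled untreated (0 h), or at 3 h or 6 h following 300 mg/kg acetaminophen by the intraperitoneal route. All mice, the 0 h mice included, had been fasted overnight, no vehicle group was among the samples, and so the drug cannot be told apart from the longer fast and the later hour.

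Values are MAS5 signals, and changes are differences of log2(signal + 2.77) fitted with limma over all 36 arrays, with Benjamini-Hochberg adjustment over the 14115 genes and a threshold of 0.05. An error given with a change is the standard error of that fit, and an error given with a signal is the SD over 3 mice. The mice of a group are separate animals, so p-values measure the spread between mice. In whole liver, fewer cells of a type and less RNA per cell cannot be told apart. All 6 hepatocyte markers were above the median signal of the arrays (30.8) in every group. Their sum was 84430 to 92028 at 0 h and 131034 to 169061 at 6 h in SMJ. In C57 it was 73285 to 86181 and 95282 to 106324, and in SJL and DBA the groups overlapped. The endothelial sum rose without overlap in C57 and DBA, and the stellate cell and fibroblast sum in C57, DBA and SJL. The Kupffer cell and macrophage sum also rose without overlap in C57 and DBA, the neutrophil sum in C57, DBA and SMJ, and the bile duct sum in SJL and SMJ. The lymphocyte sum rose in C57 and fell in SJL, and the erythroid sum rose in SMJ and fell in C57, again without overlap. The part of cell composition in the 6 h changes was not tested. The smallest correlation of an array with another of its group ranged from 0.916 to 0.957, and the 3 SJL arrays at 3 h had the lowest values, with SJL39 (the SJL mouse labelled 39) in the lowest pair; other mice are named in the same way. The actin 3'/5' ratio, a measure of RNA quality, lay between 1.28 and 1.87 and moved with time in some strains. In DBA it was 1.69 to 1.82 at 0 h and 1.38 to 1.53 at 6 h, and in SMJ 1.51 to 1.67 and 1.28 to 1.41, without overlap. In SJL it was 1.59 to 1.87 and 1.33 to 1.64, with overlap, and in C57 1.55 to 1.76 and 1.62 to 1.76. Its part in the 6 h changes and in their differences between C57 and the other strains was not tested.

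The upstream sequences of 4 members are shown because their genes carry the strain and time differences described further on, and because the antioxidant response element is the site that NRF2 binds. Each run gives the 250 bases before the gene's start, 5' to 3' on the gene's strand, from RefSeq on GRCm38.p6. Capitals mark the core of that element, TGACNNNGC, searched on both strands. The window of Psmb5 lies at chr14:54617996-54618245 on the minus strand, that of Psmb6 at chr11:70525107-70525356 on the plus strand, that of Psmd9 at chr5:123227940-123228189 on the plus strand and that of Psmd8 at chr7:29180674-29180923 on the minus strand.
Psmb5: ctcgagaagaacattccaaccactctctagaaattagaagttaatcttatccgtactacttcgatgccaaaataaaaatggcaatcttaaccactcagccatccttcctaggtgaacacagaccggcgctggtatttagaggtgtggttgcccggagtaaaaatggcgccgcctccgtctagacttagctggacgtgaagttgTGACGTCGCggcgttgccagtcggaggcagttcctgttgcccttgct
Psmb6: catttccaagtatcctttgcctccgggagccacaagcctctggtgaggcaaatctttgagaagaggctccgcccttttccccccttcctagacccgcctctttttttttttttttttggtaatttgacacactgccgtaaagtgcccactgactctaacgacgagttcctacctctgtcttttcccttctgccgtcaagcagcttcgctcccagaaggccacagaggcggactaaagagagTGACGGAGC
Psmd9: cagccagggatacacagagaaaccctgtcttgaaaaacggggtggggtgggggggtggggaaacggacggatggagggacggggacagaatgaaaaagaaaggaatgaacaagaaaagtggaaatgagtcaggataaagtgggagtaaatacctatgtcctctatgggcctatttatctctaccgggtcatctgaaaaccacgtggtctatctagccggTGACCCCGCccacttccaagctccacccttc
Psmd8: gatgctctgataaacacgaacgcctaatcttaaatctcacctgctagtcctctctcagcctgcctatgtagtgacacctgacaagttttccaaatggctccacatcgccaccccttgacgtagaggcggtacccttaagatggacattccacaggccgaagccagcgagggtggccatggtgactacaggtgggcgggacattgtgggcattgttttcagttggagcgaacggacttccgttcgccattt
In windows that also took in 50 bases after the start, 39 of the 47 members had a sequence. The core of the element was found in 6 of these 39 (15.4%), namely Psmb5, Psmb6, Psmc6, Psmd9, Psmd12 and Psme4, against 13.99% of 27025 genes. The CCAAT box (CCAAT) was in 14 of 39 (35.9%) against 41.1% of genes, and the AP-1 site TGAGTCA was in 1, Psmd9, against 5.95% of genes. The heat shock element (GAA, any 2 bases, TTC, any 2 bases, GAA) was in 0 of 39 against 0.66% of genes. The interferon element core (GAAA, any 2 bases, GAAA) was in 5 (12.8%), namely Psmb3, Psmd4, Psmd9, Psme1 and Psmg4, against 3.99% of genes. These are matches of letters in a short window and were not tested as binding sites.

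In the mean of the 4 strains 0 of 46 members passed the test at 3 h, while 7.26% of all genes passed, 3.24% higher and 4.02% lower. The members' median change was 0.03 on the log2 scale, against -0.03 over all genes tested. The 95% interval of the change stayed within 1.5-fold either way for 45 of the 46 members, and for 64.9% of all genes. Psmd8, a lid subunit, had the highest change (0.14 ± 0.06, adjusted p = 0.155), and Psmd9, a chaperone of the base, the lowest (-0.23 ± 0.11, adjusted p = 0.234). Without SJL39 the count was 1, Psmd8 at 0.17 (adjusted p = 0.0499), Psmd9 was at -0.12 and the lowest member was Psmb9 at -0.39 (adjusted p = 0.178). In C57, where 0 members passed, 12 of 46 had all 3 mice at 3 h above all 3 at 0 h, as did 6.97% of all genes, and 2 had them all below, as did 8.74%. There the members' median change was 0.10, against -0.02 over all genes. The summed signal of the 31 subunits of the standard 26S particle was 72810 to 75164 in C57 at 3 h and 65750 to 70052 at 0 h, without overlap. Another probe set of Psmd13, a lid subunit, had a mean signal of 80.0. In the order SJL, SMJ, DBA and C57 it changed by -1.23, -1.19, -2.21 and -1.35 at 3 h. The one used changed by -0.21, 0.11, 0.14 and -0.02. Single probe sets were also tested with limma, with a separate adjustment. There this other Psmd13 probe set passed in DBA (adjusted p = 0.000861) and SJL (0.0418), not in SMJ (0.285) or C57 (0.177). Probe sets of Psmd11 disagreed in SJL at 3 h. Those with mean signals of 580, 1133 and 1348 changed by 0.56, -0.47 and -0.12, and the one used by -0.09.

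At 6 h a minority of members had moved, by less than 1.5-fold. The 5 rises were all in subunits of the standard particle, which are 31 of the 46 tested members. The 7 falls were in 5 assembly chaperones, Psmb9 and Psme4. In the mean of the 4 strains 5 members rose (10.9%) and 7 fell (15.2%). Among all genes tested 12.7% rose and 20.3% fell (33.1% either way), so both shares of members were below those of all genes. The members' median change was 0.01, against -0.05 over all genes. Lid subunits rose in 3 of 8 cases and fell in 0. Assembly chaperones of the core fell in 3 of 4 cases and those of the base in 2 of 3. The 6 ATPases and the 3 other base subunits had 0 calls, with changes between -0.08 and 0.11. The alpha ring had 1 rise among 8, the standard beta ring 1 rise among 7, the immunoproteasome subunits 1 fall among 3 and the activators and inhibitor 1 fall among 4. The split depended on the scaling: quantile normalization gave 2 rises and 8 falls, and dividing each array by its 75th percentile gave 8 rises and 6 falls. The count was 13 without SJL39 and 13 without C57236, the 6 h array of C57 that is described further on.

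**Figure D1:**
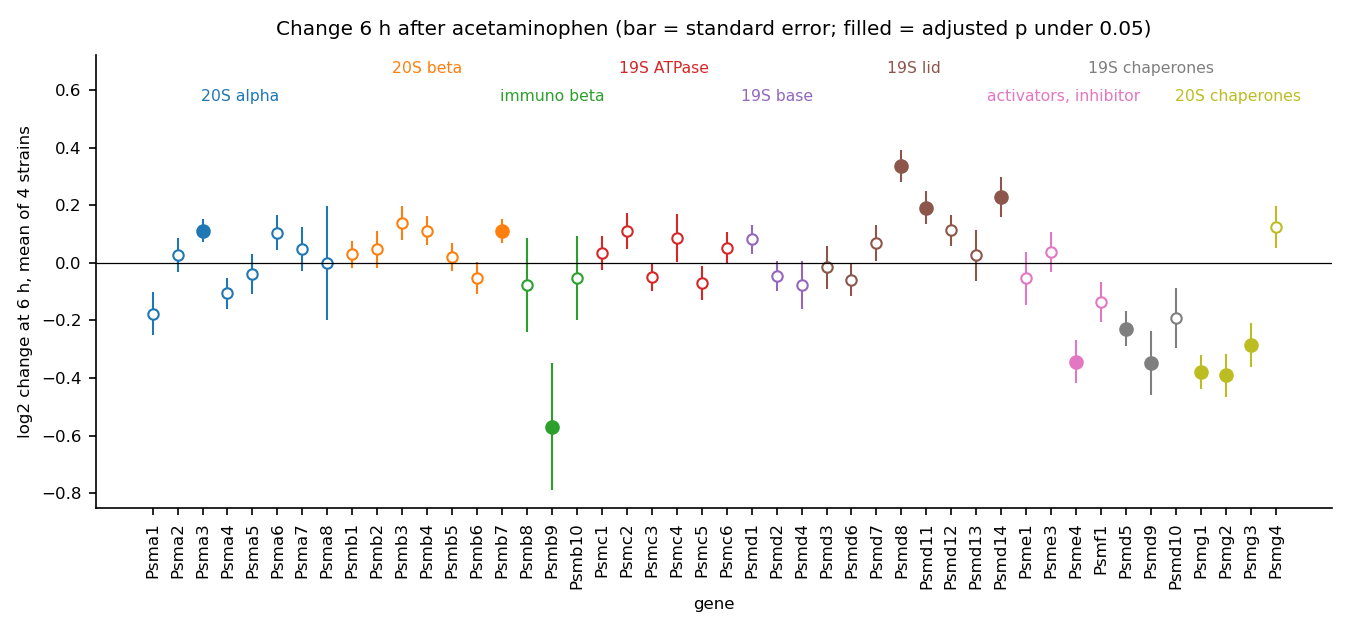
Change of each of the 46 tested proteasome genes at 6 h on the log2 scale (vertical axis), mean of the 4 strains, with genes grouped by role along the horizontal axis. Points are fitted changes, bars are standard errors, and filled points passed an adjusted p of 0.05: Psmd8, Psmd11 and Psmd14 of the lid are filled above 0, and 5 of the 7 assembly chaperones are filled below it.

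Psmd8, a lid subunit, was the member that rose most in the mean of the strains and passed the test within the most strains. Its signal at 0 h was 2472, 2415 and 2657 in C57, 2102, 2251 and 1975 in DBA, 2657, 2726 and 2615 in SMJ, and 1991, 2358 and 1925 in SJL. At 6 h it was 2741, 2522 and 2995 in C57, 3063, 2896 and 2791 in DBA, 3419, 3692 and 3231 in SMJ, and 3015, 2649 and 2507 in SJL. In SJL, SMJ and DBA every 6 h mouse was above every 0 h mouse of its strain, and in C57 the groups overlapped. The mean change was 0.34 ± 0.06 (adjusted p = 3.76e-05), and the change was 0.47 in DBA, 0.38 in SJL, 0.37 in SMJ and 0.13 in C57. The first 3 passed the test within their strain and C57 did not (adjusted p = 0.542). Leaving out 1 array ended the SJL call for SJL1, SJL4, SJL44 and SJL45 (adjusted p up to 0.165) and the SMJ call for 2 arrays (up to 0.0867). Psmd8 also rose from 3 h to 6 h (0.20 ± 0.06, adjusted p = 0.0158), a call that quantile normalization ended.

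Psmd14, the lid's deubiquitinase, passed the test within SMJ. There it was 1168, 1218 and 1129 at 0 h and 1947, 1390 and 1752 at 6 h, so the groups did not overlap. That change was 0.52 ± 0.14 (adjusted p = 0.00767), and without SMJ101 the call was lost (adjusted p = 0.0604). In SJL it was 797, 965 and 947 at 0 h and 1089, 1287 and 1113 at 6 h, also without overlap, but this change of 0.36 did not pass. The mean of the strains was 0.23 ± 0.07 (adjusted p = 0.0118). Psmd11, a lid subunit whose abundance is known to affect how many complete particles form, rose by 0.19 ± 0.06 in the mean of the strains (adjusted p = 0.0116). In SJL it went from 4430, 4894 and 4391 to 5079, 5425 and 5121, and its group means at 6 h were above those at 0 h in all 4 strains. Its other probe sets with a mean signal above 100 changed by 0.13, 0.21 and 0.49. The Psmd11 call did not hold when probe sets named _s_at were passed over or after quantile normalization.

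The remaining rises were small. Psma3, an alpha ring subunit, changed by 0.11 ± 0.04 (adjusted p = 0.0333), and Psmb7, the trypsin-like cutting subunit, by 0.11 ± 0.04 (adjusted p = 0.0463). In SMJ the Psmb7 signal was 5443, 4855 and 5075 at 0 h and 6555, 5734 and 5875 at 6 h, a rise that passed within that strain (0.24 ± 0.08, adjusted p = 0.0431; 0.199 without SMJ101). The call on the mean was lost when any 1 of 11 arrays was left out for Psma3 (adjusted p up to 0.066) and any 1 of 24 for Psmb7 (up to 0.0933). Quantile normalization turned the direction of both means, to -0.028 for Psma3 and -0.10 for Psmb7. Psmb5, the chymotrypsin-like cutting subunit, changed by 0.02 ± 0.05 with a 95% interval from -0.08 to 0.12. Psmb6, the caspase-like cutting subunit, changed by -0.05 ± 0.06 with an interval from -0.17 to 0.06.

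Of the 7 chaperones that build the particle, 5 fell. Psmg1, which pairs with Psmg2 to set out the alpha ring, was 407 to 550 on the 12 arrays at 6 h and 560 to 755 on the 12 arrays at 0 h. The 2 sets of arrays did not overlap. The mean change was -0.38 ± 0.06 (adjusted p = 1.46e-05), with -0.49 in SMJ, -0.41 in C57, -0.33 in DBA and -0.29 in SJL. Within strains it passed in SMJ (adjusted p = 0.00344) and in C57 (adjusted p = 0.0269), but in C57 any 1 of 4 arrays ended the call, up to an adjusted p of 0.132 without C57236.

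Psmg2 fell by 0.39 in the mean of the strains (± 0.07, adjusted p = 0.000141). In DBA it was 476, 513 and 497 at 0 h, 481, 460 and 465 at 3 h and 290, 252 and 320 at 6 h. In SMJ it was 598, 490 and 485 at 0 h and 329, 384 and 335 at 6 h. In both strains the 6 h mice lay below all 0 h mice, with changes of -0.78 ± 0.15 in DBA (adjusted p = 0.000627) and -0.58 ± 0.15 in SMJ (adjusted p = 0.00523). In SJL the signal was 515, 418 and 468 at 0 h and 465, 540 and 438 at 6 h, and the groups overlapped. That change was 0.04, with a 95% interval from -0.26 to 0.34. The other Psmg2 probe set with a mean signal above 100 changed by -0.37 in the mean of the strains, but differed from the chosen one in SJL. It gave -0.45 there, beside -0.52 in DBA, -0.48 in SMJ and -0.04 in C57. The SJL value did not pass (limma, adjusted p = 0.125, from the separate adjustment of single probe sets).

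Psmg3, which forms the other chaperone pair with Psmg4, fell by 0.28 (± 0.08, adjusted p = 0.00481). Its 6 h groups in SMJ were at 262, 238 and 230, below the 373, 278 and 312 at 0 h. Psmg4 changed by 0.12 ± 0.07 (adjusted p = 0.2) in the mean of the strains. In C57 alone its signal rose from 166.5, 187.6 and 143.6 to 226.3, 238.5 and 235.4, by 0.49 ± 0.14 (adjusted p = 0.0271), and leaving out any 1 of 5 arrays ended that call, up to an adjusted p of 0.135 without C57182. Whether that rise differed from the other strains was tested over the 4 strains and did not pass.

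**Figure D2:**
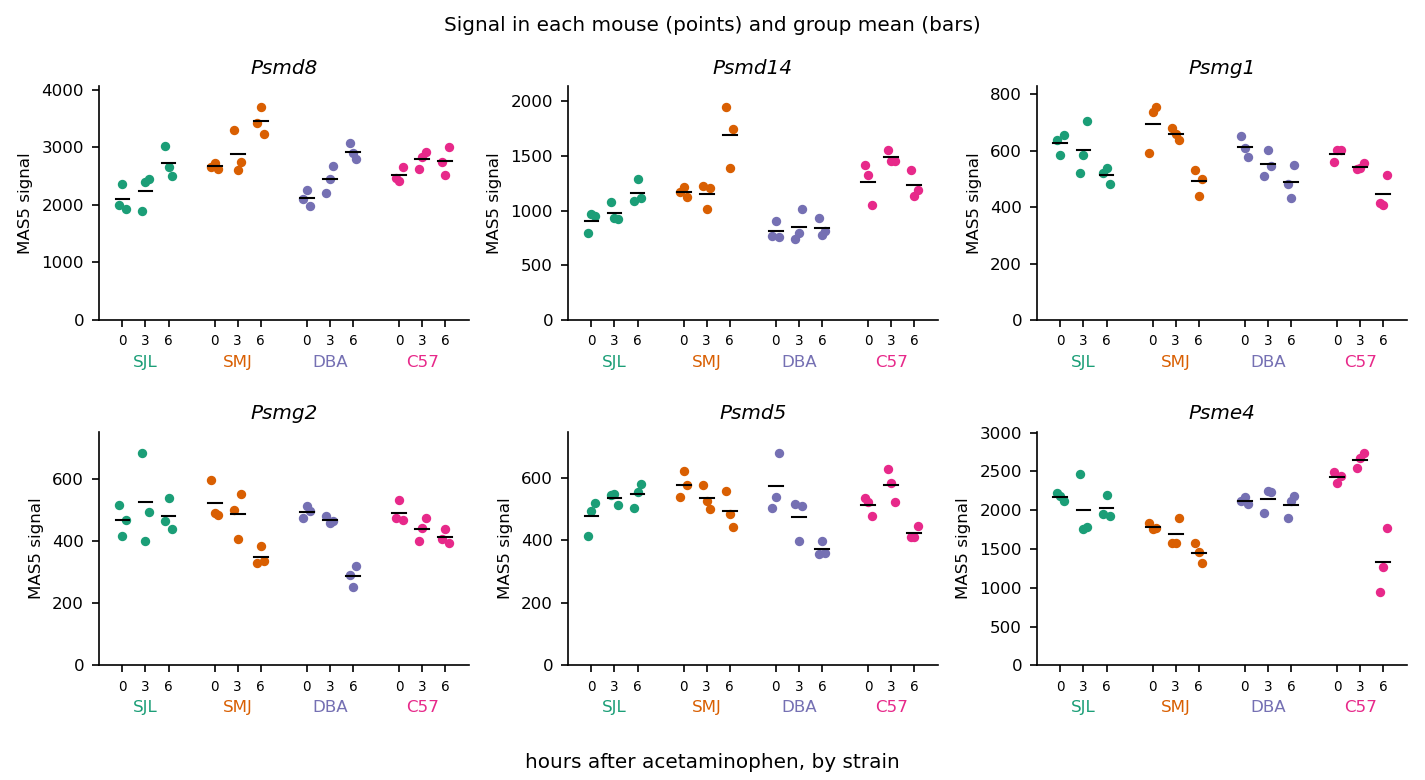
MAS5 signal (vertical axis, from 0) of 2 lid subunits, 3 assembly chaperones and the activator gene Psme4 in each mouse by strain and hours after acetaminophen. Points are mice and bars are group means of 3. At 6 h the points of Psmg1 lie below those at 0 h in every strain, while Psme4 drops in C57 to between 941 and 1776.

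Psmd5 and Psmd9 are chaperones of the ATPase ring. Psmd5 fell by 0.23 (± 0.06, adjusted p = 0.00444) in the mean of the strains. In DBA it was 504, 540 and 680 at 0 h and 357, 399 and 359 at 6 h, without overlap (-0.61 ± 0.12, adjusted p = 0.00112). In SJL it was 415, 494 and 521 at 0 h and 504, 556 and 582 at 6 h, with overlap. Psmd9 fell by 0.35 (± 0.11, adjusted p = 0.0156). In C57 it went from 1035, 1009 and 968 to 665, 664 and 688, and in SJL from 994, 1260 and 972 to 874, 904 and 724. Neither change passed within its strain. At 3 h in SJL it was at 306, 808 and 785 (-0.88 ± 0.22, adjusted p = 0.0103), the 1 call in that comparison, where 5.67% of all genes fell and 4.44% rose (10.1% either way). The lowest of these 3 values came from SJL39. Without that array the change was -0.42 (adjusted p = 0.0668), and without SJL2 the adjusted p was 0.0602. The count in that comparison was 0 without SJL2 and 2 without SJL42. Psmd10, the gankyrin chaperone, changed by -0.19 ± 0.10 at 6 h (adjusted p = 0.167).

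From 3 h to 6 h the mean of the strains gave 1 rise and 5 falls among the members, where 6.94% of all genes rose and 9.77% fell. This comparison shares its 6 h arrays with the one against 0 h. Besides Psmd8, the calls were Psmg2 at -0.34 (adjusted p = 0.00189), Psme4 at -0.32 (0.0033), Psmg1 at -0.28 (0.00163), Psmg3 at -0.27 (0.0168) and Psmd5 at -0.22 (0.013). Of these 6 calls, 4 are chaperones of assembly.

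Psme4 encodes the activator PA200, a single-chain cap. Its signal fell steeply on the C57 arrays. There it was 2494, 2344 and 2443 at 0 h, 2543, 2668 and 2739 at 3 h and 941, 1261 and 1776 at 6 h. The 6 h mice were below all others of the strain (-0.92 ± 0.15, adjusted p = 0.000156). In DBA it was 2115, 2172 and 2079 at 0 h and 1892, 2112 and 2177 at 6 h, and those groups overlapped. The change was -0.31 in SMJ, -0.11 in SJL and -0.04 in DBA, and the difference between C57 and the mean of the other strains was -0.77 ± 0.17 (adjusted p = 0.01), a comparison chosen after the values were seen. Without C57233, the lowest of the 3 mice, that difference had an adjusted p of 0.0543. The other bright probe sets of Psme4 gave changes of -0.93 and -0.87 in C57, whereas probe sets with mean signals of 25.4, 31.8 and 59.0 gave 0.38, 1.37 and 0.98. With the mean over all its probe sets the Psme4 change in C57 was 0.0018. Psme1 changed by -0.05 ± 0.09, Psme3, the nuclear activator, by 0.04 ± 0.07, and Psmf1, the inhibitor PI31, by -0.14 ± 0.07 at 6 h in the mean of the strains, and none of these 3 passed.

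**Figure D3:**
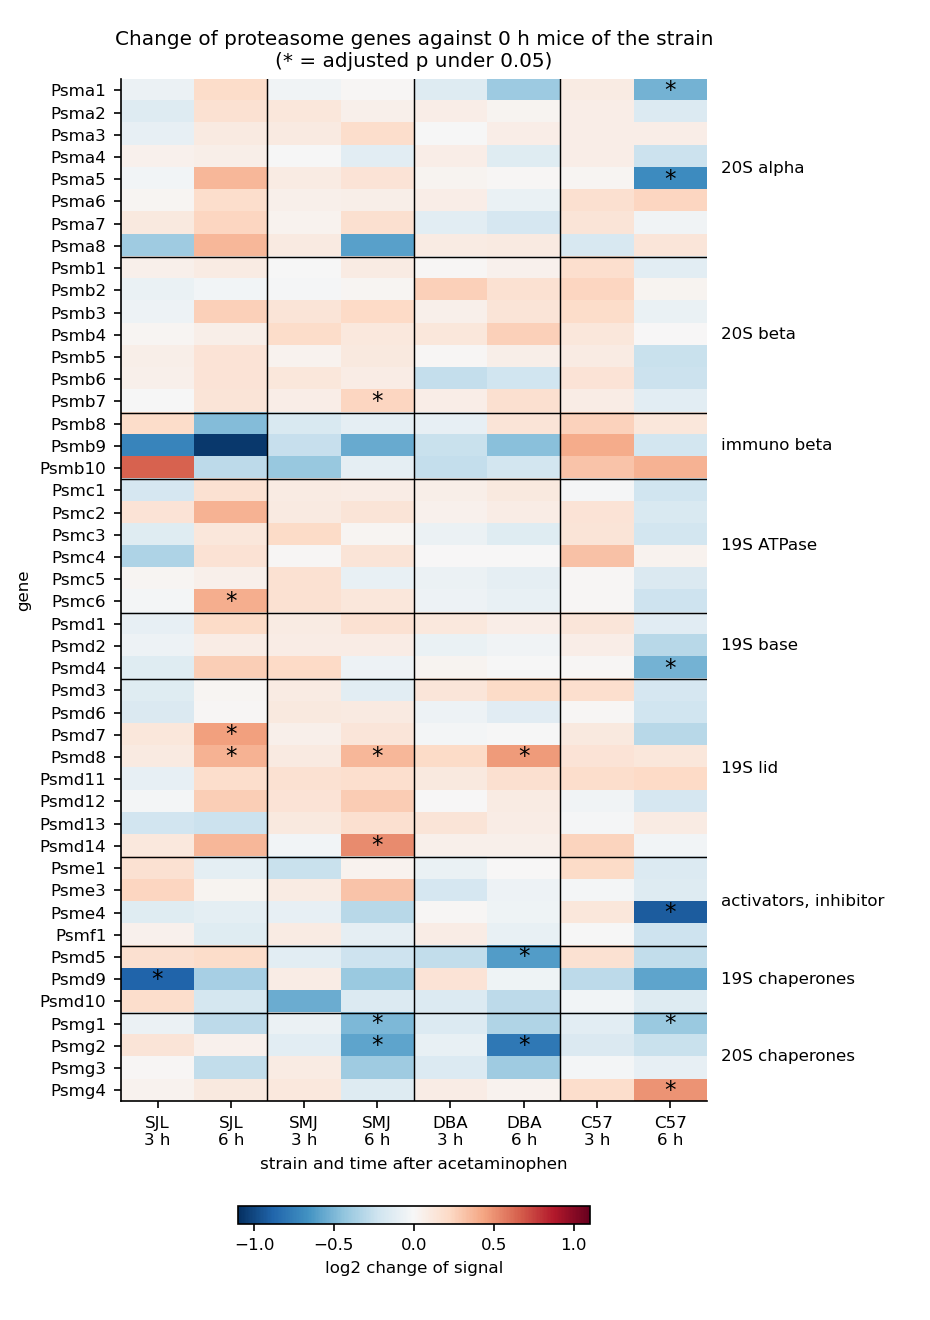
Log2 change of the signal of the 46 tested proteasome genes (rows, by role) against the 0 h mice of the same strain, for each strain at 3 h and 6 h (columns). Red is higher and blue is lower than at 0 h, and a star marks an adjusted p under 0.05: 1 star stands in the 3 h columns and 17 in the 6 h columns, of which 6 are in C57.

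Calls within strains at 6 h rest on the spread shared by all 36 arrays. Fitting only the arrays of the groups compared gave 1 call in DBA and 0 in each other strain, and the mean over all probe sets of a gene gave 1 in SJL and 2 in C57. SJL had 3 rises and 0 falls, where 3.63% of all genes rose and 3.37% fell. Psmd7, a lid subunit, rose from 633, 752 and 830 to 901, 1078 and 1049 (0.45 ± 0.13, adjusted p = 0.027), and Psmc6, an ATPase, from 1232, 1307 and 1236 to 1609, 1788 and 1596 (0.40 ± 0.11, adjusted p = 0.0182). Psmd8 was the third. In none of these did the SJL groups overlap, but the count was 0 without SJL1, 0 without SJL45 and 1 without SJL4. The members' median change in SJL was 0.12, against -0.08 over all genes.

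SMJ had 3 rises (Psmd14, Psmd8 and Psmb7) and 2 falls (Psmg1 and Psmg2), where 8.87% of all genes rose and 12.5% fell (21.4% either way). The count was 3 without SMJ58 and 3 without SMJ101. DBA had 1 rise (Psmd8) and 2 falls (Psmd5 and Psmg2), where 4.85% rose and 7.74% fell, and the count was 5 without SJL39, which enters through the shared estimate of the spread. At 3 h no member passed in SMJ (0.177% of all genes rose and 0.0283% fell), DBA (1.06% and 0.397%) or C57 (0.205% and 0.0779%).

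C57 had 1 rise (Psmg4) and 5 falls at 6 h, where 4.39% of all genes rose and 5.75% fell (10.1% either way). The falls were Psme4, Psmg1, the alpha subunits Psma5 and Psma1, and the ubiquitin receptor Psmd4. Psma5 went from 2979, 2957 and 3157 to 2152, 1584 and 1938 (-0.69 ± 0.14, adjusted p = 0.00173). Psma1 went from 2067, 2114 and 1790 to 1494, 1193 and 1480 (-0.52 ± 0.15, adjusted p = 0.022), and Psmd4 from 2490, 2306 and 2154 to 1605, 1264 and 2064 (-0.52 ± 0.17, adjusted p = 0.0471). None of these groups overlapped. The lowest Psma5, Psma1 and Psmd4 values came from 1 mouse, C57236.

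That mouse was low across the particle. Over the 31 subunits of the standard 26S proteasome its median deviation from the C57 mean at 0 h was -0.35 on the log2 scale, against -0.06 and -0.06 for the other C57 mice at 6 h. Its summed signal of these subunits was 55657, against 67315 and 67232, while its actin 3'/5' ratio was 1.62 against 1.76 and 1.64. Without C57236 the 6 calls became 2, Psme4 at -0.91 (adjusted p = 0.00146) and Psma5 at -0.57 (adjusted p = 0.0224), and the count was 3 without C57180 and 3 without C57181. The other bright probe set of Psma5 changed by -0.64 in C57.

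**Figure D4:**
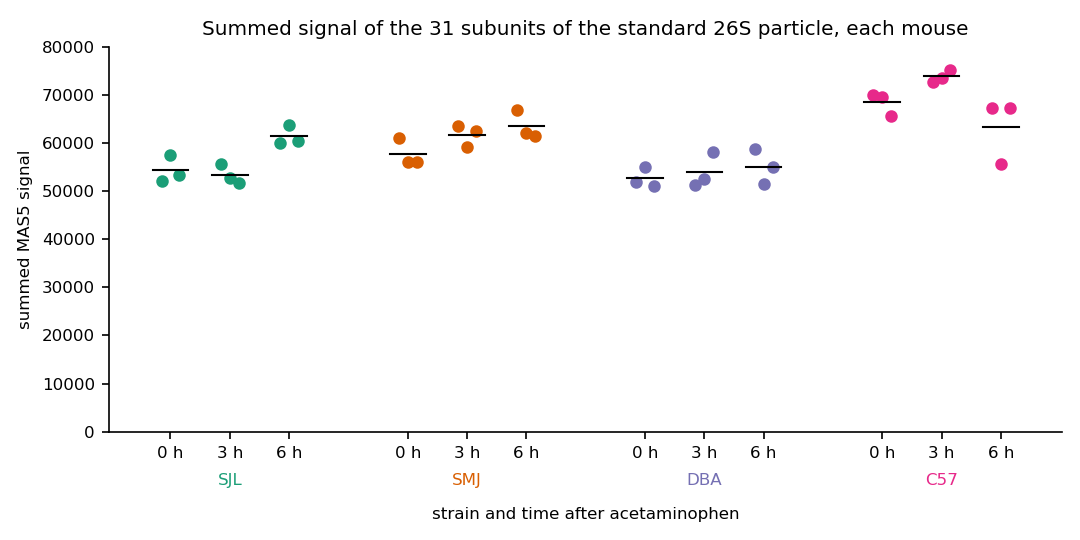
Summed MAS5 signal of the 31 subunits of the standard 26S particle in each mouse (points, with the mean of 3 as a bar) by strain and time. C57 at 0 h lies above every 0 h mouse of the other strains, and 1 C57 mouse at 6 h (55657) lies below the others of its group.

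The response of 5 members differed between the strains at 6 h by the F test over the 4 changes, where 5.26% of all genes passed. Given in the order SJL, SMJ, DBA and C57, Psma5 changed by 0.37, 0.15, 0.01 and -0.69 (adjusted p = 0.00724), Psmd5 by 0.20, -0.23, -0.61 and -0.27 (0.0256), and Psme4 as above (0.0307). Psmc6 changed by 0.40, 0.12, -0.08 and -0.23 (0.0384) and Psmg2 by 0.04, -0.58, -0.78 and -0.24 (0.0485), where the other bright probe set of Psmg2 gave -0.45, -0.48, -0.52 and -0.04, so SJL was not set apart on it. In Psma5 and Psmc6 the resistant strain SJL was highest and C57 lowest. The other probe sets of Psmc6 gave 0.22, -0.82, -0.28 and -0.97, and 0.10, -0.28, -0.07 and -0.49, again with SJL highest and C57 lowest. The count of 5 fell to 2 without C57236 (Psma5 and Psmd5) and to 1 without SJL45, and it was 2 without SJL1, SJL48, C57180 or C57182 and 3 without SJL2, SMJ57, SMJ58, SMJ101, DBA113, DBA114, DBA115 or C57233. At 3 h 0 of 46 differed between strains, where 1.95% of all genes did.

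SJL against the mean of the 3 sensitive strains gave 0 members at 3 h, where 4.63% of all genes passed (2.13% higher and 2.49% lower), and 0 at 6 h, where 0.248% did (0.198% higher and 0.0496% lower). The members' median difference at 6 h was 0.15, against -0.02 over all genes. The member nearest to the threshold at 6 h was Psmd5, with a difference of 0.57 and a 95% interval from 0.29 to 0.86 (adjusted p = 0.0703), followed by Psmc6 at 0.46 (0.0881). At 3 h the count was 1 without SJL39, Psmb9 at -1.45 (adjusted p = 0.044), and also 1 without SJL40, SJL42, DBA158 or C57226. C57 against the other 3 strains, chosen after the values were seen, gave 0 higher and 3 lower changes at 6 h, where 2.2% of all genes were higher and 2.39% lower (4.59% either way). These were Psma5 (-0.87, adjusted p = 0.0023), Psme4, and Psmd7 (-0.50, adjusted p = 0.0494). The count was 1 without C57233, 2 without C57236, and 5 without C57237 or without SJL39. This comparison shares its 0 h arrays with the comparison of C57 with the other strains at 0 h.

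At 0 h 29 of 46 members differed between the strains by the F test, where 26.5% of all genes passed. The member with the smallest p was Psmb6, at 1902, 2052 and 1843 in C57, 1480, 1390 and 1485 in SJL, 1000, 1038 and 877 in DBA and 912, 933 and 997 in SMJ (adjusted p = 1.04e-07). SMJ and DBA overlapped, SJL stood above both and C57 above all. Psmb5 was at 2473, 2497 and 2444 in C57, 1631, 1721 and 1397 in DBA, 1918, 1875 and 1834 in SMJ and 1469, 1632 and 1513 in SJL (adjusted p = 2.3e-05). Here C57 again stood above every other mouse, and SJL and DBA overlapped. The next were the ATPase Psmc2 (adjusted p = 9.35e-05), the lid subunit Psmd12 (0.000117) and the chaperone Psmg4 (0.000571).

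Most of the particle's subunits were highest in C57. Among the 31 standard subunits C57 had the highest mean at 0 h in 25, SMJ in 5, SJL in 1 and DBA in 0, whereas over all 14115 genes C57 had the highest mean in 23.8%. The summed signal of the 31 was 65750 to 70052 in the C57 mice and 51013 to 60978 in the other 9 mice at 0 h, without overlap. Against the mean of the other 3 strains, in a comparison chosen after the values were seen, 20 members were higher in C57 and 2 lower, where 5.93% of all genes were higher and 6.34% lower. The median over the members was 0.26 and that over all genes -0.01. The largest were Psmb6 (0.81 ± 0.09, adjusted p = 5.5e-07), Psmb5 (0.58 ± 0.08, 1.68e-05) and Psma5 (0.58 ± 0.11, 0.00112). By role, 5 of 8 alpha subunits, 5 of 7 standard beta subunits, 5 of 6 ATPases, 2 of 3 other base subunits and 3 of 8 lid subunits were higher, and 0 of 7 chaperones were. The 2 lower members were Psmb10 of the immunoproteasome (-0.98 ± 0.24, adjusted p = 0.00654) and Psmg4 (-0.58 ± 0.12, adjusted p = 0.00138). The count of 22 was 13 without C57180 and 14 without C57181. The changes in C57 at 3 h and 6 h are measured against these same 0 h mice. They are therefore not independent of this comparison, and Psma5 and Psmg4 were called here and in C57 at 6 h.

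The level of a probe set can differ between strains on 1 set of probes alone. A second probe set of Psmd6, a lid subunit, read 2228 ± 205.8 in C57, 1651 ± 240.4 in SMJ and 1420 ± 68.7 in SJL at 0 h, but 83.0 ± 4.06 in DBA (SD, n = 3). The one used here differed far less, with DBA at 1596 and C57 at 2174. The part of probe sequence in the other strain differences was not tested.

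SJL against the mean of the sensitive strains at 0 h gave 2 members higher and 6 lower, where 6.55% of all genes were higher and 5.84% lower. Psmd9 was higher, at 994, 1260 and 972 in SJL against 534 to 585 in SMJ and DBA, but C57 was as high, at 968 to 1035 (0.65 ± 0.18, adjusted p = 0.0164). Psmd11 was the other (0.40 ± 0.09, adjusted p = 0.0058), at 4391 to 4894 in SJL and 2827 to 4441 in the rest, with overlap. Without SJL2 neither passed, with adjusted p-values of 0.132 for Psmd9 and 0.0568 for Psmd11. Psmc2 was lower, at 1482, 1258 and 1249 in SJL against 1616 to 2622 in the other strains, without overlap (-0.58 ± 0.10, adjusted p = 0.000336). Psmd12 (-0.46) and Psma5 (-0.40) also lay below every other mouse, and Psmd4 (-0.48), Psma1 (-0.46) and Psmb5 (-0.34) passed with overlap. The count of 8 was 4 without SJL1. Psmd4 depended on its probe set, since the mean over its probe sets gave 0.01.

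**Figure D5:**
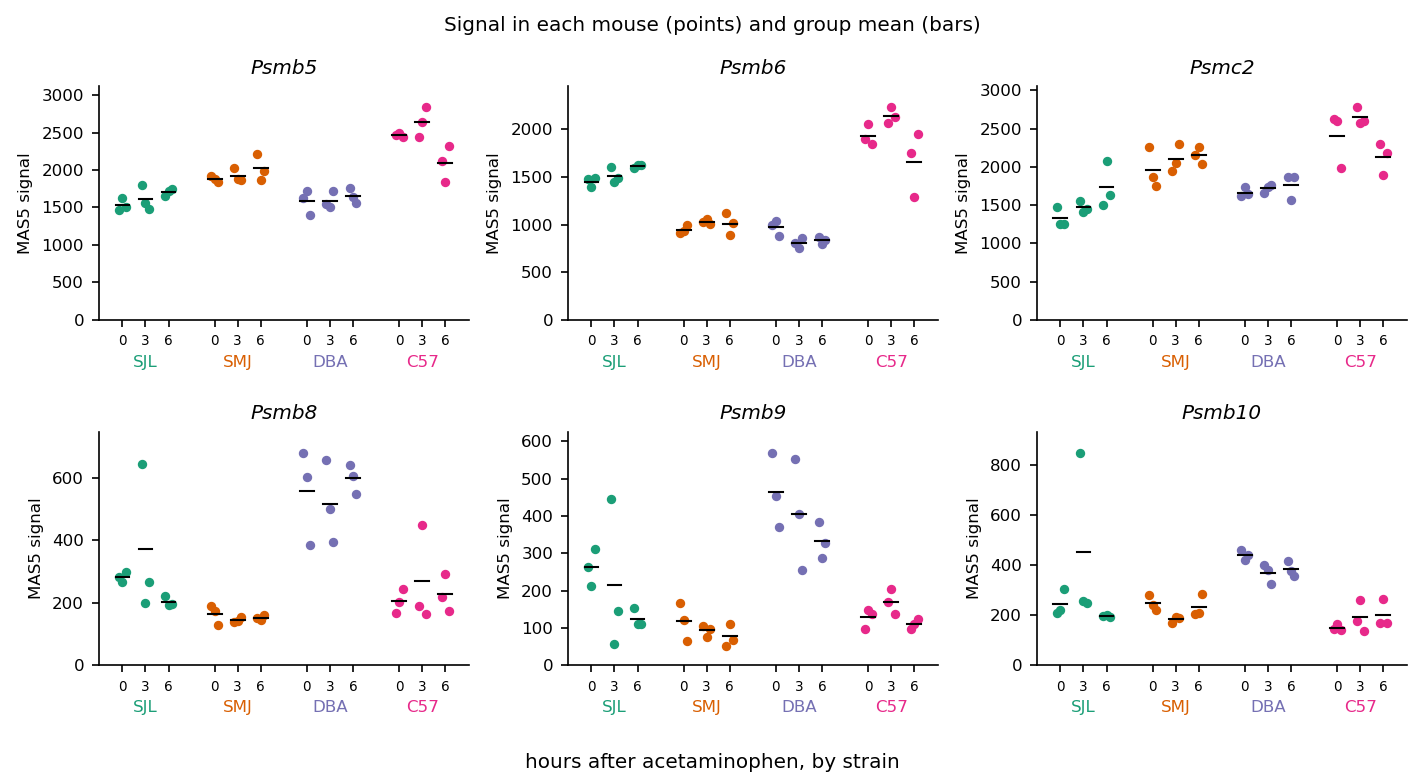
MAS5 signal (vertical axis, from 0) of the cutting subunits Psmb5 and Psmb6, the ATPase Psmc2 and the immunoproteasome subunits Psmb8, Psmb9 and Psmb10 in each mouse by strain and hours after acetaminophen; points are mice and bars are group means of 3. Psmb5 and Psmb6 are highest in C57 at 0 h and the immunoproteasome subunits are highest in DBA, and 1 SJL mouse at 3 h reaches 847 for Psmb10.

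The immunoproteasome subunits had another order, with DBA at the top. At 0 h Psmb8 was 681, 603 and 387 in DBA, 284, 268 and 299 in SJL, 168.5, 202.9 and 245.5 in C57 and 191, 175 and 130 in SMJ (F test, adjusted p = 0.00135). Psmb9 was 569, 453 and 371 in DBA, 265, 213 and 312 in SJL, 97.6, 149 and 139 in C57 and 166.1, 122 and 66.4 in SMJ (adjusted p = 0.00261). Psmb10 was 458, 422 and 441 in DBA, 209, 222 and 304 in SJL, 280, 242 and 221 in SMJ and 144, 164 and 141 in C57 (adjusted p = 0.0024). In all 3 genes every DBA mouse stood above every mouse of the other strains. The erythroid markers had a higher sum in DBA too, at 890 to 966 at 0 h against 154 to 575 in the other strains, with 1 of 3 above the median signal in DBA. The summed lymphocyte markers were 81.8 to 118 in DBA and 83.4 to 252 in the other strains, and 0 of the 6 on the array had a DBA mean above the median signal. The part of these cells in the strain differences was not tested.

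At 6 h Psmb9 fell by 0.57 in the mean of the strains (± 0.22, adjusted p = 0.0476), and the call was lost when any 1 of 25 arrays was left out. In SJL it went from 265, 213 and 312 to 153, 111 and 110, without overlap, but this did not pass within the strain (-1.06 ± 0.44, adjusted p = 0.161). At 3 h in SJL it was at 446.2, 56.99 and 146.0, with the high value in SJL39. Without SJL39 the change at 3 h was -1.48 (adjusted p = 0.0112). SJL39 also held the highest Psmb8 and Psmb10 values of its group, at 646 against 200 and 268 and at 847 against 258 and 250. The summed lymphocyte markers in SJL were 191 to 252 at 0 h, 84.4 to 129 at 3 h and 94.1 to 165 at 6 h, and 4, 1 and 2 of the 6 had a mean above the median signal. Their part in the Psmb9 values was not tested. Psmb8 changed by -0.08 ± 0.16 and Psmb10 by -0.05 ± 0.15 at 6 h in the mean of the strains, and neither passed.

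Class I antigen processing loads the peptides that the immunoproteasome makes. Of 9 tested genes of this pathway and its regulators, 3 rose and 2 fell at 6 h in the mean of the strains. Among all genes 12.7% rose and 20.3% fell. The rises were the regulators Irf8 (0.75) and Irf1 (0.43), the latter an interferon-induced activator of class I genes, and B2m (0.30). The falls were the peptidase Erap1 (-0.44) and Tapbpl (-0.48). The peptide transporter genes Tap1 (-0.26, adjusted p = 0.221) and Tap2 (-0.14, adjusted p = 0.535) did not pass. At 6 h 4 of 5 tested neutrophil markers and 2 of 8 Kupffer cell and macrophage markers had risen and 0 of 5 lymphocyte markers had changed.

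Of 11 tested proteasome partners outside the Psm genes, 3 rose and 4 fell at 6 h, where 12.7% of all genes rose and 20.3% fell. The zinc finger genes Zfand5 and Zfand2a moved furthest. Zfand5, which binds the cap and speeds degradation, rose by 1.97 ± 0.11 (adjusted p = 8.49e-13), with group means going from 1570 to 5527 in C57, 1424 to 5687 in DBA, 2288 to 7611 in SMJ and 1803 to 8877 in SJL. Zfand2a, an arsenite-inducible cap protein, rose by 2.13 ± 0.22 (adjusted p = 4e-08), with 3.00 in SMJ, 2.97 in SJL, 2.26 in DBA and 0.28 in C57. The third rise was Usp14, a deubiquitinase of the cap (0.23). The falls were Ecpas (-0.29), Psme3ip1 (-0.23), Uchl5 (-0.22) and Ube3c (-0.18). By the F test the 6 h changes of Zfand2a (adjusted p = 0.0204), Usp14 (0.0118) and Ecpas (0.0294) differed between the strains. Those of Zfand5, Psme3ip1, Uchl5 and Ube3c did not pass. Pomp, the maturation factor of the core, changed by 0.08 ± 0.09 (adjusted p = 0.545). At 3 h only the zinc finger genes had risen among these 11, Zfand2a by 1.18 and Zfand5 by 0.95, where 3.24% of all genes rose.

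Of 11 tested shuttle factors and VCP partners, which carry ubiquitinated proteins to the particle, Vcp rose by 0.16 and Ngly1 (-0.25) and Ubqln4 (-0.34) fell. For these and the following lists, 12.7% of all genes rose and 20.3% fell. Of 7 tested genes listed here as regulators of proteasome gene transcription, Bach1 (1.40) and Nfe2l2 (0.24) rose. Whether the listed genes act on the members in these livers was not tested. The change of Nfe2l2 at 6 h differed between the strains (F test, adjusted p = 0.00332), and that of Bach1 did not pass (0.0839). Nfe2l1, which encodes the factor that raises proteasome genes when the particle is blocked, fell by 0.39 (± 0.09, adjusted p = 0.000706), with group means going from 451 to 344 in C57, 463 to 339 in DBA, 364 to 254 in SMJ and 418 to 351 in SJL. The ubiquitin-activating enzyme gene Uba6 fell by 0.28.

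Of the tested NRF2 target genes, 7 of 8 rose at 6 h, among them Hmox1 (3.93), Osgin1 (2.71), Gclc (1.79) and Nqo1 (0.76). By the F test the changes of Osgin1 (adjusted p = 0.00257) and Hmox1 (0.0222) differed between the strains, and those of Gclc and Nqo1 did not pass. The 6 members with the antioxidant element core in their promoter window, printed for Psmb5, Psmb6 and Psmd9, are too few to read against the 12.7% of all genes that rose. Their changes were 0.11 for Psmd12 (adjusted p = 0.117), 0.05 for Psmc6, 0.02 for Psmb5, -0.05 for Psmb6, -0.34 for Psme4 and -0.35 for Psmd9, and the last pair passed. Psmd8, the member that rose most in the mean of the strains, had no match in its window.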

How the data were processed

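Liver RNA of 36 mice was hybridised to 1-colour Affymetrix arrays. The intensity values that the authors deposited are signals made with MAS5, per the submitters' processing notes; its version is not given in the sources used here. The mean of each array, after leaving out 2% of probe sets at each end, was 150. Of 45101 probe sets, 34945 carried 1 gene symbol in the platform annotation, 932 several and 9160 none, and 34741 of the first had a gene ID in RefSeq. Each gene was represented by its probe set with the highest mean signal (18193 genes), and 14115 genes with at least 3 arrays above the median of all values (30.8) were tested. The log2 values were fitted in limma 3.58.1 (R 4.3.3) as 12 group means with 24 residual degrees of freedom, after adding an offset of 2.77, the 10th percentile of all values, so changes of dim genes are understated. The F tests compared 4 strains. Tests were two-sided and were checked on simulated data.

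Members, gene lists and tests were chosen with earlier results of these data known. Values were given by rule for the largest rises and falls past the threshold (up to 10 each way in strain means, up to 5 in other comparisons), for the 5 smallest p in each F test, and for a fixed set of catalytic, immune, activator, chaperone and regulator genes; of each list of other genes, up to 4 with the smallest p. Other genes named were chosen after their values were seen. The number of arrays limits the precision. Alternatives were other offsets, no filter, quantile and 75th percentile scaling, other choices of probe set, fits on the compared groups alone and leaving out each array. Both comparisons of C57 with the other strains were added after the data were seen. No sequence of a protein was used here.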

Additional observations from a re-analysis of the deposited data

Results flagged for a closer look

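The change at 6 h differed between the strains for 5 proteasome genes by limma's F test, with adjusted p-values of 0.00724 for Psma5, 0.0256 for Psmd5, 0.0307 for Psme4, 0.0384 for Psmc6 and 0.0485 for Psmg2. The change at 6 h in C57 differed from the mean of the other 3 strains for Psma5 (adjusted p = 0.0023), Psme4 (0.01) and Psmd7 (0.0494), a limma comparison chosen after the data were seen. It shares its 0 h arrays with the comparison of the strains at 0 h. Without C57236 the F test passed for Psma5 (0.0348) and Psmd5 (0.0384) and not for Psme4 (0.0771), Psmc6 (0.0792) or Psmg2 (0.0733). The C57 difference then passed for Psma5 (0.0192) and Psme4 (0.0363) and not for Psmd7 (0.193).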

How the results depend on the processing

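Every member call was followed through 36 left-out arrays and 8 other settings. Of 4532 values, 4068 kept the call, 458 lost it and 6 reversed; the F tests among them have no direction. With the mean over all probe sets of a gene, the count of members past the threshold was 2 at 3 h in the strain mean (0 in the report), 1 at 6 h in SJL, 2 at 6 h in C57, 5 for SJL against the others at 0 h, 1 for the C57 difference at 6 h and 2 for the F test at 6 h. Fitting only the arrays of the groups compared gave 0 at 3 h in SJL. At 6 h it gave 0 in C57, 1 in DBA, 0 in SMJ and 0 in SJL, with 17 for the F test at 0 h and 3 at 6 h; these fits hold fewer samples. Without the filter the F test at 6 h gave 2. The SJL difference at 3 h gave 1 with an offset of 32, 1 after quantile normalization and 1 with the 75th percentile. At 6 h it gave 1 after quantile normalization, and the C57 difference gave 9 with the 75th percentile. Quantile normalization turned Psma3 (-0.028) and Psmb7 (-0.10 in the mean, -0.12 in SMJ) at 6 h, and the mean over probe sets turned Psme4 at 6 h (0.18 in the mean, 0.0018 in C57) and Psmd4 in SJL at 0 h (0.0066). The cause of these shifts was not tested.

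Leaving out 1 array at a time gave counts of 0 to 1 at 3 h and 9 to 13 at 6 h in the strain mean, and 6 to 8 from 3 h to 6 h. At 3 h within SJL it gave 0 to 2. At 6 h it gave 2 to 7 in C57, 3 to 5 in DBA, 3 to 6 in SMJ and 0 to 4 in SJL. SJL against the others at 0 h ranged from 4 to 10, its difference at 3 h from 0 to 1, C57 against the others at 0 h from 13 to 24 and its difference at 6 h from 1 to 5. The F test ranged from 20 to 30 at 0 h and from 1 to 7 at 6 h. No paired analysis was possible because the mouse numbers do not repeat across groups. MAS5 gives no depth, and dim genes such as Psma8 (mean signal 27.4) limit what could be seen.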
